A study of Mus musculus with 4 samples.

Results

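Genes of lipid uptake and mitochondrial fatty acid oxidation were compared between muscle progenitor cells of aged and young mice. A list of 34 genes was taken by symbol from the array's annotation, using only probe sets annotated with 1 gene symbol. Of the 34 genes, 30 had such a probe set, each gene exactly 1, among 19505 genes measured in all. Acsl1, Etfb, Ppard and Ucp2 were not analysed here. The cells came from skeletal muscle of C57Bl/6 mice aged 2 years (aged, 2 arrays) or 5 weeks (young, 2 arrays), with no treatment or genetic change named in the labels. After collagenase digestion, cells carrying both CD29, the beta 1 integrin, and ITGA7, the alpha 7 integrin, were sorted, and 1 ng of RNA per array was labelled. How many animals gave each array, and whether replicates were different animals, is not in the labels. The p-values therefore cover the spread between these arrays only, which may be technical.

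Muscle burns long-chain fatty acids that arrive bound to albumin or are released from lipoproteins at the vessel wall. They cross the membrane with help from CD36 and are carried in the cytosol by fatty acid binding proteins. As acyl-CoA they enter the mitochondrion through the carnitine shuttle, where repeated cycles of dehydrogenation, hydration, a second dehydrogenation and thiolysis shorten them. Nuclear receptors of the PPAR family and their coactivator PGC-1 alpha, encoded by Ppargc1a, are known to switch on many of these genes. Satellite cells, the stem cells of muscle, are known to rely on fatty acid oxidation at rest and to turn towards glycolysis when they activate.

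Levels are deposited log2 values, and differences are aged minus young in those log2 units, with the standard error (SE) of a limma fit over 19572 probe sets. The genes of the sorted protein and of satellite cell identity were read above the median of the negative controls on every array. Itga7 was at 14.57 and 15.06 in aged against 15.12 and 14.80 in young cells, and the satellite cell gene Pax7 at 9.99 and 11.04 in aged against 10.91 and 9.89 in young cells. Of the 12 satellite cell genes 5 had positive and 7 negative differences. Groups did not overlap for 4 of them (33.3%, against 36.6% of all probe sets). At an unadjusted p under 0.05 there was 1 (8.33%, against 7.35% of all probe sets). That gene, Megf10, differed by -1.36 ± 0.45 (SE), and Cdh15, the cadherin of muscle precursors, by -0.87 ± 0.36. Itgb1, which encodes the sorted CD29, was at 13.86 and 13.53 in aged against 14.71 and 13.96 in young cells, with both aged arrays lower, and Chrdl2 differed by 0.90 ± 0.49 with both aged arrays higher. Other cells left traces that differed between arrays. The 17 myofibre genes averaged 12.30 on aged replicate 1 and 9.58 to 9.97 on the other three arrays, and the 12 endothelial genes averaged 9.32 on young replicate 2 and 6.46 to 7.38 elsewhere. The widest gap between the ages was in the 10 granulocyte genes, which averaged 9.44 and 11.82 in aged against 6.65 and 6.01 in young arrays. All 10 had positive differences (median 4.28) and 8 were at an unadjusted p under 0.05 (80%). Mpo and Elane, enzymes of granulocyte precursors, differed by 6.72 ± 0.67 and 6.77 ± 0.84. Ltf was below the negative control median on every array. The 9 fibroblast genes averaged 13.52 and 13.42 in aged against 14.82 and 14.59 in young arrays. All 9 differences were negative, of which 4 were at an unadjusted p under 0.05 (44.4%). In sorted cells measured in bulk, fewer cells of a type and less RNA per cell cannot be told apart. The separation of positive from negative control probe sets, an area under the curve, was 0.792 and 0.819 in aged against 0.849 and 0.823 in young arrays. Its part, and that of the other cells, in the results below was not tested.

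The 3 upstream sequences below are shown because they belong to the genes at the centre of the results: Ppargc1a and Fabp3, the genes with the largest positive differences, and the divergent pair Hadha and Hadhb. They come from RefSeq on GRCm38.p6, 5′ to 3′, and stop before the start of transcription. The Ppargc1a sequence is chr5:51567726-51567975 on the minus strand, the Fabp3 sequence chr4:130308488-130308737 on the plus strand, and the Hadha to Hadhb sequence chr5:30154981-30155252 on the plus strand. Capitals mark TGACG, the shortened site of the cAMP response element, on either strand in Ppargc1a and Fabp3, and the GC box GGGCGG in the Hadha to Hadhb stretch.
Ppargc1a: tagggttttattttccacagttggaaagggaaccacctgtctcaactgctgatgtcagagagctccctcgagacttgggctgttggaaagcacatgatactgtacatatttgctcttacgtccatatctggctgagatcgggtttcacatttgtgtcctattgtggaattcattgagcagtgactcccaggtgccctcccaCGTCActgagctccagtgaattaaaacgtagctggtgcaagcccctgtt
Fabp3: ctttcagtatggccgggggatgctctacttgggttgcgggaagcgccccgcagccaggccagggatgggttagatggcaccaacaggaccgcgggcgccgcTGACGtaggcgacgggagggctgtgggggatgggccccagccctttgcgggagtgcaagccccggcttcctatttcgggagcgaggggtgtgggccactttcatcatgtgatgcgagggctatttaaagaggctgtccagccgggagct
Hadha-Hadhb: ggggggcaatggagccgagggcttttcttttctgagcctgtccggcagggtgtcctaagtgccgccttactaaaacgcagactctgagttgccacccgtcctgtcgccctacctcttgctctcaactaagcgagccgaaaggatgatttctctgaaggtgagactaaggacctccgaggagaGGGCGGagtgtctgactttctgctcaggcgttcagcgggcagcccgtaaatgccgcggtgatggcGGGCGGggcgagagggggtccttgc

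Hadha and Hadhb point away from each other, with 272 bases between their starts, so the same stretch lies upstream of both. Promoter windows of 300 bases, from 250 before to 50 after the start, were matched for 23 of the 30 measured genes, as 25 windows. The other 7 measured genes had no window and were not searched. Pparg had 3 windows, and those of Hadha and Hadhb shared 228 bases, so the windows are not all separate promoters. The 25 windows were searched on both strands, and only exact matches were counted. The direct repeat AGGTCANAGGTCA, the core of the PPAR response element, was in none of these windows and in 0.0396% of 32851 windows of all genes. The estrogen-related receptor element TNAAGGTCA was likewise in none of them, against 1.28% of all windows. The single site AGGTCA, which both of these motifs contain, was in 9 windows of 8 genes (Acadm, Acadvl, Cd36, Cpt1a, Echs1, Plin2, Pparg and Ucp3), or 36%, against 16.3% of all windows. TGACG was in 7 windows (28%, against 20.8%) and GGGCGG in 17 (68%, against 35.7%). These matches describe letters in a short window, and PPAR response elements are also known outside such windows. With shares of 0.0396% and 1.28% over all windows, the absence of the direct repeat and the estrogen-related receptor element from 25 windows says little.

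Ppargc1a and Fabp3 had the largest positive differences of the list and Lpl and Acadm the largest negative ones. None of the 30 genes passed an adjusted p under 0.05 in limma, and 0% of all probe sets did. At an unadjusted p under 0.05 there were 4 of the 30 (13.3%), where 7.35% of all probe sets were called. Ppargc1a and Fabp3 were higher in aged cells (3.36% of probe sets were called higher), and Lpl and Hadha were lower (3.99% were called lower). Both aged arrays lay on one side of both young arrays for 8 of the 30 genes (26.7%), against 36.6% of all probe sets. Of these 8, 2 were higher (18.2% of probe sets) and 6 lower (18.4%) in aged cells. The median difference of the list was -0.15, with 12 genes positive and 18 negative, and that of all probe sets was -0.0013. By these counts the list as a whole stood close to the background. With arrays centred on the negative controls the calls were 2 higher and 5 lower. The share of all probe sets called after that centring was not counted. That centring moved the median of all genes to -0.29 and left 4 genes of the list positive and 26 negative. It also changed the SEs of the fit, and the part of either change in the extra calls was not tested.

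**Figure D1:**
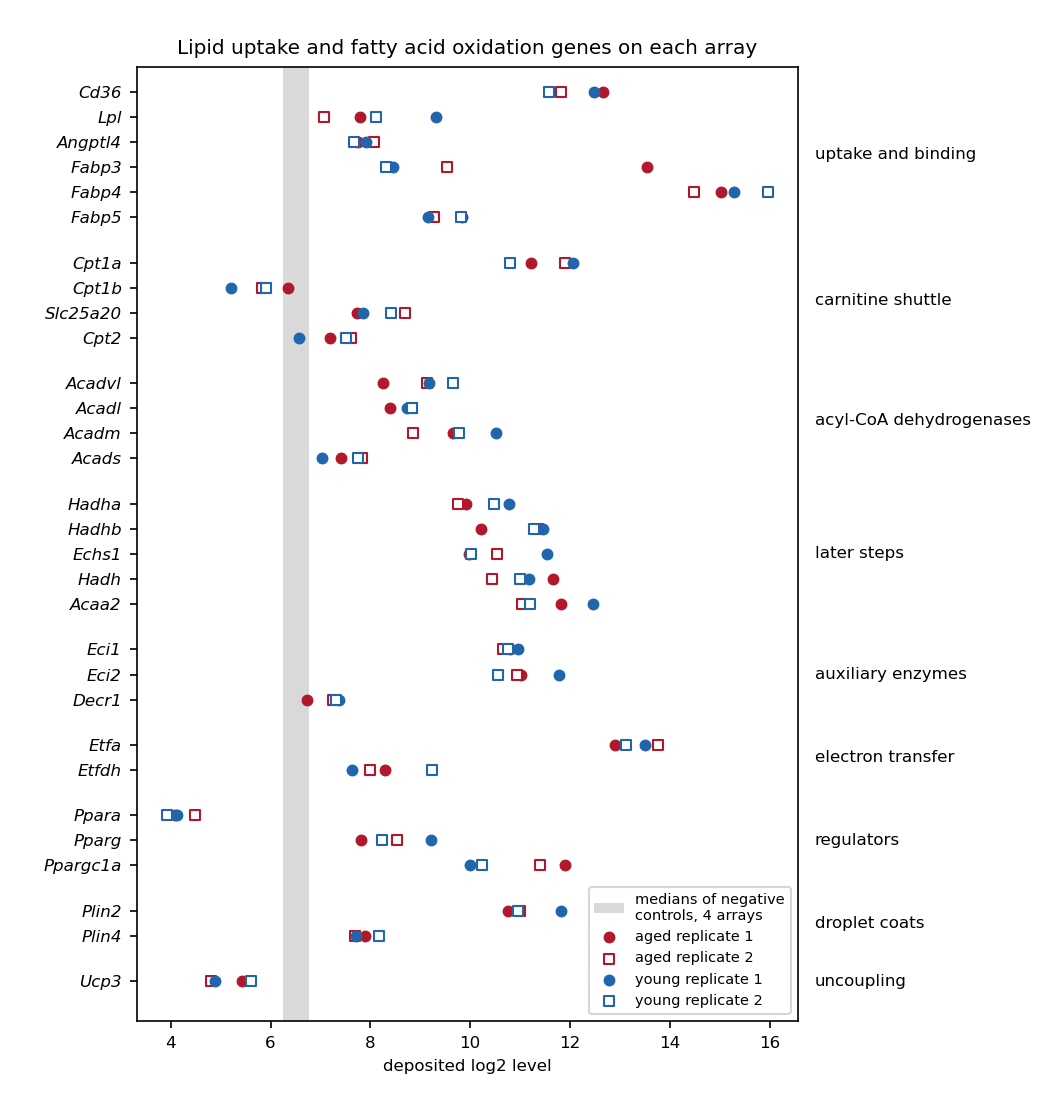
Deposited log2 level of each measured gene (horizontal axis) on the 4 arrays, with genes ordered by role; red marks aged, blue young, circles replicate 1 and squares replicate 2, and the grey strip spans the medians of the negative controls (6.25 to 6.76). Ppargc1a and Fabp3 have both aged arrays to the right of both young arrays, and Cpt1b, Ppara and Ucp3 lie at or left of the grey strip.

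How far a gene stood above the array's own negative control probe sets differed across the list. Those 5222 controls had medians of 6.76 and 6.68 in aged against 6.25 and 6.62 in young arrays. Above that median on every array were 26 of the 30 genes, and Decr1 was above it on 3 arrays. Cpt1b, the muscle form of the carnitine gate enzyme, Ppara and Ucp3, the uncoupling protein of muscle mitochondria, were below it on each of the 4 arrays. Their readings may be background, and no direction is drawn for them. Only Fabp4 and Etfa stood above the 95th percentile of the controls, which was 11.02 to 11.78, on every array.

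Ppargc1a encodes PGC-1 alpha, the coactivator that drives mitochondrial biogenesis and oxidative genes in muscle. It was read at 11.91 and 11.40 in aged against 10.00 and 10.23 in young cells. Both aged arrays were thus higher by over 1 log2 unit than either young array. The means were 11.65 ± 0.36 (SD, n = 2) and 10.12 ± 0.16 (SD, n = 2), a difference of 1.54 ± 0.33 (SE). Its unadjusted p was 0.00354, the smallest of the list, and the limma adjusted p was 0.465. Leaving out each array in turn gave 1.28 to 1.79, each time at an unadjusted p under 0.05 (0.00667 to 0.0231 in limma). Ppargc1a was highest on aged replicate 1, the array with most myofibre signal, and without that array the difference was 1.28 ± 0.38. All 10 granulocyte genes were highest on aged replicate 2, where Ppargc1a was the lower of its aged readings. The part of myofibre and of granulocyte RNA in the Ppargc1a difference was not tested.

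The measured nuclear receptors of the list, which PGC-1 alpha is known to assist, were not called. Pparg, the receptor best known from fat cell formation, was read at 7.81 and 8.54 in aged against 9.22 and 8.24 in young cells, so that the groups overlapped. It differed by -0.55 ± 0.45 (SE), with a 95% interval from -1.67 to 0.57. Ppara, the receptor best known for switching on oxidation genes in liver and muscle, was at 4.08 and 4.48 in aged against 4.13 and 3.91 in young cells, below the control medians throughout.

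The 3 fatty acid binding protein genes had differences of both signs. Fabp3, the heart and muscle form, was read at 13.55 and 9.54 in aged against 8.45 and 8.31 in young cells. Both aged arrays were above both young arrays, but aged replicate 1 lay 4 log2 units above aged replicate 2. The difference was 3.17 ± 1.21 (SE; unadjusted p of 0.0410, limma adjusted p of 0.659), with a 95% interval from 0.18 to 6.15. It was 1.16 ± 0.38 without aged replicate 1 (unadjusted p of 0.0303 in limma) and was 5.17 with aged replicate 2 left out. Without either young array it stayed near 3 but no longer passed (unadjusted p of 0.0566 with replicate 1 and 0.0650 with replicate 2 left out).

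Myofibre genes moved with Fabp3 on the arrays. Of 17 myofibre genes, 16 had positive differences (median 1.02) and 15 were highest on aged replicate 1. At an unadjusted p under 0.05, 2 were higher and 1 lower (17.6%, against 7.35% of all probe sets). Myl3 and Myl2, the light chains of slow fibre myosin, differed by 4.40 ± 1.74 and 4.16 ± 1.31 (SE), and Mb, the oxygen store myoglobin, was at 16.16 on aged replicate 1 and at 9.97 to 12.00 on the other three. Ryr1, the calcium release channel of fibres, differed by -1.50 ± 0.35 and was above the control median on 1 array. Of these genes Myh7 alone was below the control median on every array. The part of myofibre RNA in the Fabp3 difference was not tested. On aged replicate 2, 4 of the 17 myofibre genes (Myl2, Myl3, Actn3 and Tnnt3) were, like Fabp3, above both young arrays: Myl3 was at 9.48 there against 7.94 and 8.10, and Myl2 at 8.50 against 7.07 and 5.79. The mean of the 17 genes there was 9.90, against 9.97 and 9.58 in the young arrays.

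Fabp4, the form of fat cells, small vessels and macrophages, was read at 15.03 and 14.48 in aged against 15.29 and 15.97 in young cells. Both aged arrays were lower, by a margin between the nearest arrays smaller than the gap between replicates. The difference was -0.87 ± 0.38 (SE; unadjusted p of 0.0641, limma adjusted p of 0.700), with -0.53 when young replicate 2 was left out and -1.21 when young replicate 1 was (unadjusted p of 0.0321). It also passed an unadjusted p under 0.05 with arrays centred on the negative controls (-1.15, p of 0.0180) and, at 0.0309, with a variance prior that follows the mean level in limma. Fabp5, the epidermal form, which is also found in macrophages and endothelium, was at 9.84 and 9.27 in aged against 9.15 and 9.82 in young cells, and its groups overlapped. Its difference of 0.07 ± 0.38 had a 95% interval from -0.87 to 1.01. Whether the differences of the 3 genes differed from each other was not tested.

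Lpl encodes lipoprotein lipase, which frees fatty acids from lipoproteins at the vessel wall. It was read at 7.80 and 7.08 in aged against 9.32 and 8.12 in young cells, with both aged arrays below both young arrays. The difference was -1.28 ± 0.50 (SE; unadjusted p of 0.0434, limma adjusted p of 0.669). With young replicate 2 left out it was -1.88, with young replicate 1 left out -0.68, and it no longer passed without young replicate 1 or without aged replicate 2 (unadjusted p of 0.196 and 0.197 in limma).

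The other genes of uptake overlapped between the ages. Cd36, the membrane receptor for long-chain fatty acids, was at 12.65 and 11.81 in aged against 12.49 and 11.59 in young cells. In each age replicate 1 was the higher, and the difference between ages was 0.19 ± 0.46 (SE; 95% interval from -0.94 to 1.32). Angptl4, a secreted inhibitor of lipoprotein lipase and a well-known PPAR target, was at 7.75 and 8.06 in aged against 7.90 and 7.67 in young cells, a difference of 0.12 ± 0.30. Centring on the negative controls turned the signs of Cd36 and Angptl4.

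Cells that are known for Lpl, Fabp4 and Cd36 were traced by their own markers. Of 12 endothelial genes, 11 had negative differences (median -0.91), none was at an unadjusted p under 0.05, and 10 were highest on young replicate 2. Pecam1, the endothelial surface protein CD31, was at 10.85 there and at 6.40 to 7.50 on the other three arrays. The 10 fat cell genes averaged 5.57 and 5.15 in aged against 5.32 and 5.23 in young arrays. Of these, 7 were below the control median on every array, Lep, Plin1 and Cidec among them, and Adipoq was above it on 1 array. Thrsp, above it on 3 arrays, was the 1 fat cell gene of 10 at an unadjusted p under 0.05 (10%, against 7.35% of all probe sets). It was at 8.02 and 7.78 in aged against 7.02 and 6.31 in young cells, a difference of 1.24 ± 0.36 (SE). The 14 macrophage genes averaged 6.95 and 6.54 in aged against 6.11 and 5.60 in young arrays. Every one of the 14 had a positive difference and 5 were at an unadjusted p under 0.05 (35.7%, against 7.35% of all probe sets). Of the 14, 7 were below the control median on every array. The part of these cells, and of the fibroblasts and granulocytes given above, in the differences of Lpl and Fabp4 was not tested.

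**Figure D2:**
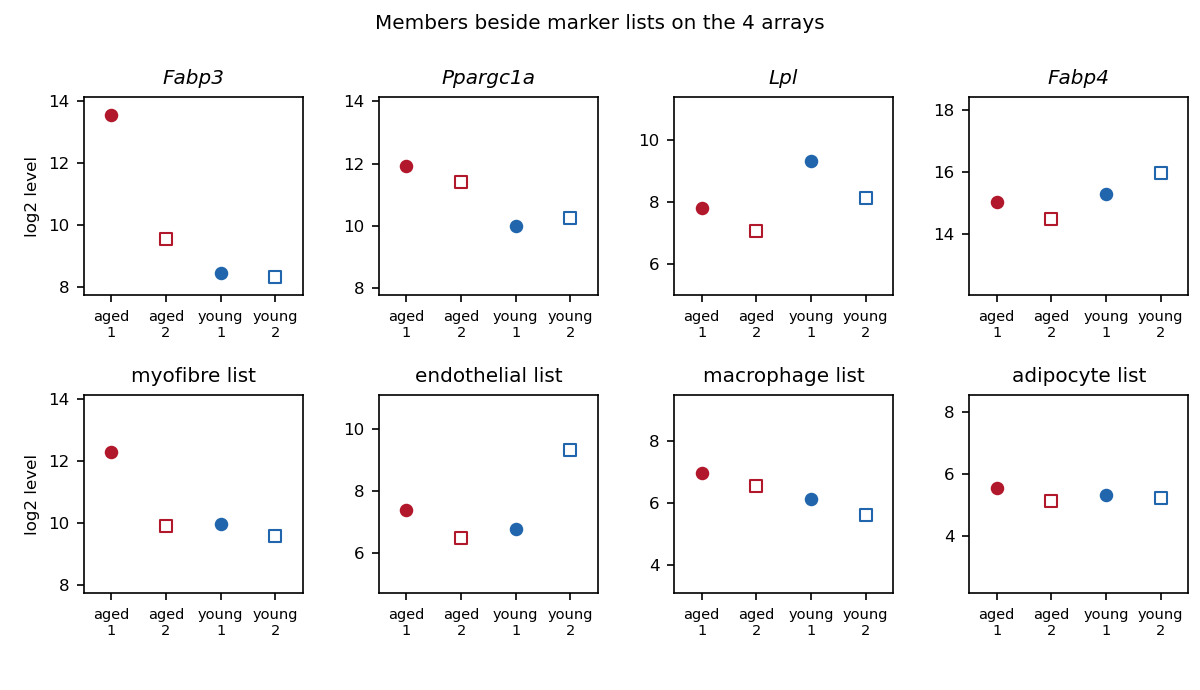
Log2 level on each array of Fabp3, Ppargc1a, Lpl and Fabp4 (top) and the mean log2 level of the myofibre, endothelial, macrophage and fat cell marker lists (bottom), with the same span on each vertical axis. Fabp3 (13.55), Ppargc1a (11.91) and the myofibre list (12.30) are highest on aged replicate 1. Both Fabp3 and Ppargc1a are above the young arrays on each aged array, and the endothelial list stands out on young replicate 2 (9.32).

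No gene of the carnitine shuttle passed the test. Cpt1a, the form of the gate enzyme found in most tissues, was at 11.21 and 11.90 in aged against 12.05 and 10.80 in young cells. The highest and the lowest reading were both young, and the difference was 0.13 ± 0.50 (SE; 95% interval from -1.11 to 1.37). Its muscle paralogue Cpt1b was at 6.36 and 5.83 in aged against 5.20 and 5.90 in young cells, a difference of 0.54 ± 0.38 among readings below the control medians. Cpt2, which rebuilds acyl-CoA inside the mitochondrion, was at 7.18 and 7.61 in aged against 6.56 and 7.51 in young cells. Young replicate 1 alone was low for Cpt2, and the difference was 0.36 ± 0.41. Slc25a20, the carnitine carrier of the inner membrane, was at 7.73 and 8.69 in aged against 7.85 and 8.41 in young cells, a difference of 0.08 ± 0.43. Centring on the negative controls turned the signs of Cpt1a and Slc25a20.

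The acyl-CoA dehydrogenases, which take fatty acids of different chain lengths, had differences of both signs. Acadm, the medium-chain enzyme, was at 9.66 and 8.86 in aged against 10.53 and 9.77 in young cells, with both aged arrays lower. Its difference was -0.89 ± 0.43 (SE; unadjusted p of 0.0860, limma adjusted p of 0.729), with -1.29 when aged replicate 1 was left out and -0.48 when aged replicate 2 was. Acadvl, the very-long-chain enzyme of the inner membrane, was at 8.26 and 9.13 in aged against 9.18 and 9.65 in young cells, again without overlap. It differed by -0.72 ± 0.40, which was -0.28 without aged replicate 1. Acadl, the long-chain enzyme, was at 8.39 and 8.83 in aged against 8.74 and 8.83 in young cells, a difference of -0.18 ± 0.31. Acads, the short-chain enzyme, was at 7.41 and 7.84 in aged against 7.02 and 7.75 in young cells and differed by 0.23 ± 0.37, a sign that turned with centring on the negative controls. Acadm passed an unadjusted p under 0.05 with arrays centred on the negative controls (0.0389) and Acadvl too (0.0477 in limma).

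Hadha and Hadhb encode the alpha and beta subunits of the mitochondrial trifunctional protein, which carries out the last 3 steps of the cycle on long chains. Hadha was at 9.92 and 9.76 in aged against 10.79 and 10.48 in young cells, with narrow gaps inside each age. The difference was -0.80 ± 0.30 (SE; unadjusted p of 0.0385, limma adjusted p of 0.654). It was -0.64 to -0.95 with an array left out, and no longer passed in any of these 4 fits (unadjusted p of 0.0562 to 0.165 in limma). Nor did it pass with the filter on dim probe sets (0.0627), the variance prior with a trend (0.0808) or every entry of the table fitted (0.0501). Hadhb, which shares the upstream stretch printed above, was at 10.21 and 11.37 in aged against 11.46 and 11.28 in young cells. Only aged replicate 1 was low, and the difference was -0.58 ± 0.44; without aged replicate 1 it was -0.00085. On aged replicate 2, Hadha was thus below both young arrays and Hadhb between them.

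The remaining enzymes of the cycle overlapped between ages except Decr1. Echs1, the short-chain enoyl-CoA hydratase, was at 9.97 and 10.54 in aged against 11.53 and 10.02 in young cells, a difference of -0.52 ± 0.55 (SE). Young replicate 1 set that difference, which was 0.24 without it. Acaa2, a thiolase of the last step, was at 11.81 and 11.03 in aged against 12.46 and 11.19 in young cells and differed by -0.40 ± 0.52. Hadh, the second dehydrogenase for shorter chains, was at 11.66 and 10.44 in aged against 11.18 and 11.00 in young cells. Its readings from aged cells were both the highest and the lowest, and its difference of -0.04 ± 0.46 turned sign after a second quantile normalization. Among the auxiliary enzymes for unsaturated chains, the isomerase genes Eci1 and Eci2 differed by -0.14 ± 0.29 and -0.18 ± 0.45. Eci1 was the steadiest gene of the list, at 10.79 and 10.66 in aged against 10.97 and 10.76 in young cells. Decr1, the dienoyl-CoA reductase, was at 6.73 and 7.25 in aged against 7.37 and 7.31 in young cells, a difference of -0.35 ± 0.32 with the nearest arrays less than 0.1 apart.

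Electrons from the dehydrogenases pass through the electron transfer flavoprotein to ubiquinone. Etfa, its alpha subunit, was at 12.91 and 13.76 in aged against 13.50 and 13.12 in young cells, a difference of 0.02 ± 0.39 (SE) whose sign turned with either centring. Etfdh, the oxidoreductase that hands the electrons on, was at 8.28 and 7.99 in aged against 7.63 and 9.23 in young cells. The young arrays lay further apart than the ages, and the difference was -0.29 ± 0.55. Of the lipid droplet coat genes, Plin2, found on droplets of most cells, was at 10.75 and 11.00 in aged against 11.82 and 10.95 in young cells. It differed by -0.51 ± 0.39, and by -0.07 without young replicate 1. Plin4, a coat protein best known from fat and muscle, was at 7.89 and 7.68 in aged against 7.70 and 8.17 in young cells and differed by -0.15 ± 0.32. Ucp3 was at 5.42 and 4.81 in aged against 4.88 and 5.60 in young cells, below the control medians.

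**Figure D3:**
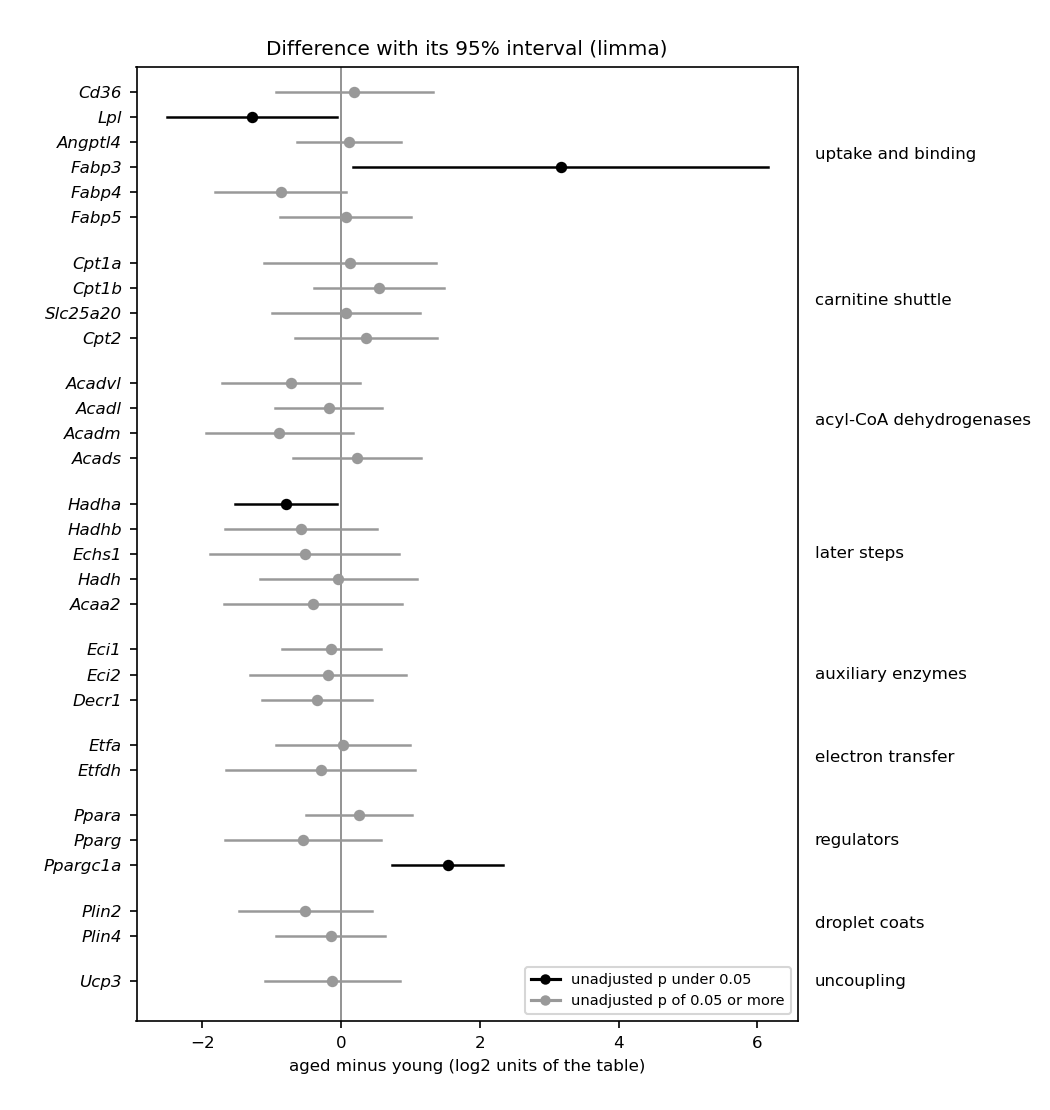
Difference between aged and young cells for each measured gene (horizontal axis, log2 units, aged minus young) with its 95% interval from limma; black marks an unadjusted p under 0.05. Only the intervals of Lpl, Fabp3, Hadha and Ppargc1a leave out 0, and that of Fabp3 is the widest (0.18 to 6.15).

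Replicates of one age often differed by more than the ages did. The median gap between the aged arrays over the 30 genes was 0.56 and that between the young arrays 0.68, against 0.36 in both ages over all probe sets. The median SE was 0.40 for the list and 0.34 for all probe sets. Young replicate 1 held the highest reading for 12 of the 30 genes, among them 4 of the 5 genes of the later steps and the 3 auxiliary genes. With 2 arrays per age an exact permutation test of 1 gene cannot give a two-sided p below 0.333.

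**Figure D4:**
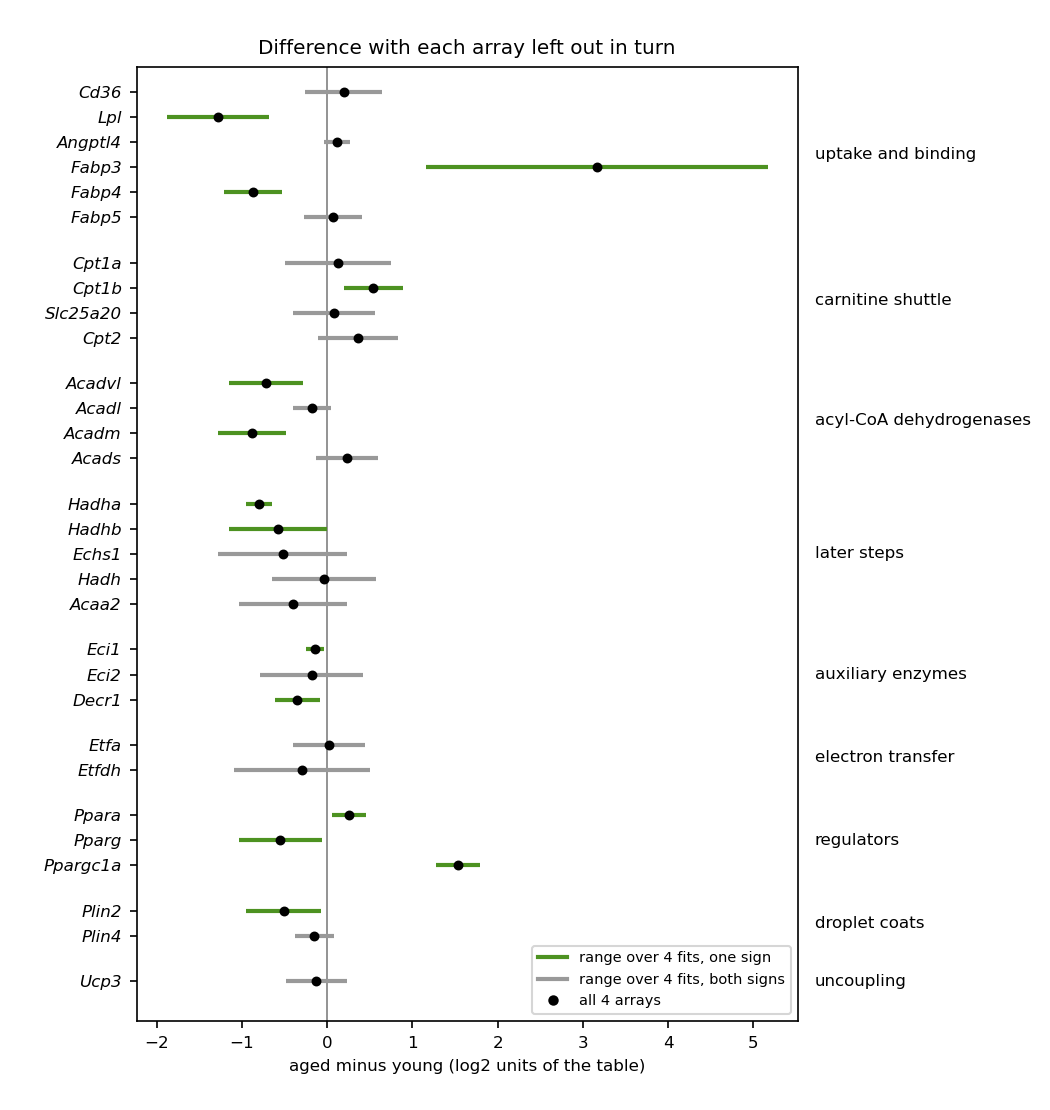
Difference between aged and young cells in the fit of the 4 arrays (black points, log2 units) and the range of that difference when each array is left out in turn (bars); green bars keep 1 sign and grey bars span 0. The bar of Ppargc1a is short (1.28 to 1.79), that of Fabp3 is long (1.16 to 5.17), and those of most enzymes span 0.

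Other genes of lipid handling were taken from 6 lists with 97 genes, of which 88 were measured. At an unadjusted p under 0.05 there were 1 higher and 6 lower in aged cells (7.95%, against 7.35% of all probe sets), and none passed the adjusted threshold in limma. Their median difference was 0.03, with 46 positive and 42 negative. Groups did not overlap for 41 of the 88 (46.6%, against 36.6%). The count of 7 became 2 when aged replicate 1 was left out and 15 when young replicate 2 was, of which 8 were higher and 7 lower.

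Peroxisomes shorten very long and branched chains before mitochondria take over, and 3 of 13 measured genes of that list were lower at an unadjusted p under 0.05, where 3.99% of all probe sets were. With 1 gene called in each of the lists of 14 to 22 genes that follow, those counts were near the 7.35% called in either direction. Hsd17b4, the multifunctional enzyme of that pathway, was at 8.62 and 7.98 in aged against 10.47 and 9.53 in young cells. The difference was -1.70 ± 0.44 (SE; limma adjusted p of 0.508), with no overlap. Abcd2, a peroxisomal importer of fatty acyl-CoA, differed by -1.41 ± 0.44, and Crot, which makes carnitine esters for export to mitochondria, by -1.13 ± 0.35. The median of the 13 genes was nevertheless 0.12, and 7 of them were positive. The peroxisomal gene Decr2, higher in both aged arrays, was placed in the mitochondrial list and is not among the 13.

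Among the droplet and lipolysis genes 1 of 16 was lower at that threshold and none higher. It was Plin3, another droplet coat protein, at 9.74 and 10.17 in aged against 11.02 and 11.67 in young cells, so that it differed by -1.39 ± 0.36 (SE; adjusted p of 0.510 in limma). Hilpda, an inhibitor of lipolysis induced by low oxygen, differed by 0.80 ± 0.34. Dgat1 and Dgat2, which make triglyceride, differed by 0.77 ± 0.35 and 0.53 ± 0.29. All 3 had aged arrays above young arrays without passing. Of the 16 genes, 7 had both aged arrays higher (18.2% of all probe sets did) and 1 had both lower (18.4% did).

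In the uptake and activation list 1 of 14 genes was lower at that threshold and none higher. Slc27a4, a fatty acid transport protein, was at 5.75 and 6.75 in aged against 8.67 and 7.42 in young cells, a difference of -1.80 ± 0.55 (SE) that includes an aged reading below the control median. The acyl-CoA synthetase genes Acsl4 and Acsl5 differed by 0.81 ± 0.34 and 0.62 ± 0.30. Gpihbp1, which anchors lipoprotein lipase on capillary endothelium, was at 6.22 and 6.21 in aged against 6.51 and 7.60 in young cells, below the control median in both aged arrays. In the mitochondrial list, Acad8, a dehydrogenase of valine breakdown, was the 1 gene of 20 at that threshold, higher by 0.89 ± 0.32. Acad9 and Acadsb differed by 0.63 ± 0.29 and -0.79 ± 0.35. Decr2, a peroxisomal enzyme that had been placed in this list, differed by 0.78 ± 0.33 with both aged arrays higher.

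Of 22 regulators, Rxrb, a retinoid X receptor that pairs with the PPARs, was the 1 gene at that threshold. It was at 8.61 and 8.85 in aged against 9.61 and 9.65 in young cells, which is -0.90 ± 0.29 (SE; adjusted p of 0.603 in limma). Nrip1, a corepressor of oxidative genes, differed by 0.91 ± 0.42, and Acaca, the acetyl-CoA carboxylase of fatty acid synthesis, by 0.53 ± 0.33. Esrrb was below the control median on every array. The 3 other uncoupling carriers had negative differences without passing, and Ucp1 and Slc25a14 were below the control median throughout; Slc25a27 differed by -0.40 ± 0.34.

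**Figure D5:**
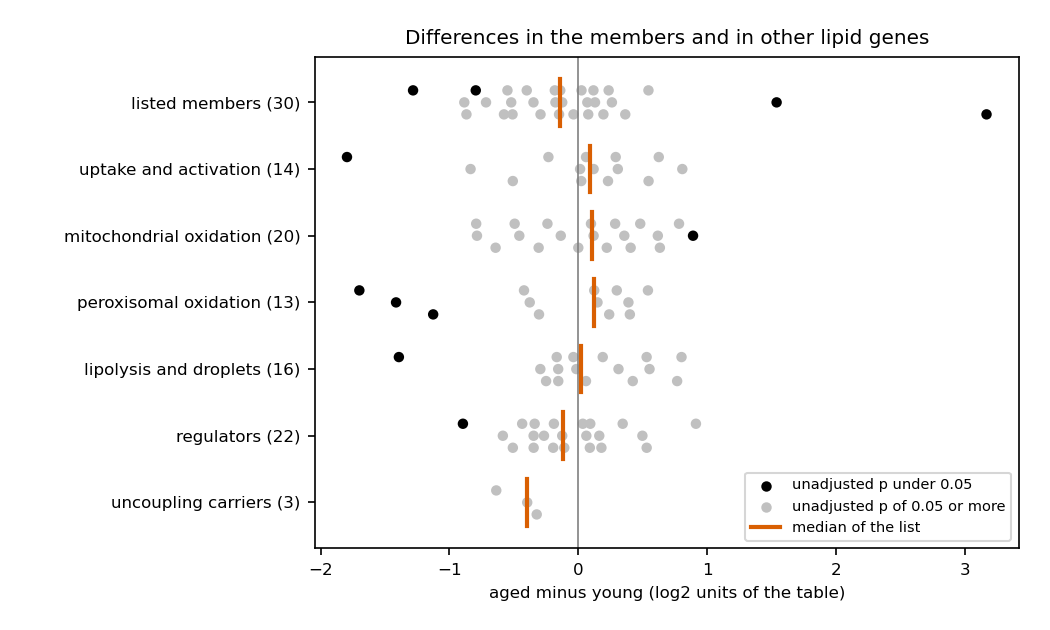
Difference between aged and young cells (horizontal axis, log2 units) for each measured gene of the listed members and of the 6 other lists, with the number of genes in brackets; black points are at an unadjusted p under 0.05 and orange bars are list medians. Medians run from -0.40 to 0.12, and the 3 black points of the peroxisomal list lie left of -1.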

How the data were processed

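Per the submitters' processing notes, the authors made the deposited log2 values with RMA (background correction, normalization between arrays and a summary per probe set) and the Transcriptome Analysis Console; no version or genome build is given in the sources used here. The table held 28846 entries between 2.08 and 19.36, beyond the range of a plain log2 scan, so differences stay in its log2 units and are not given as folds. Probe sets with 1 gene symbol (19572) were named from the platform annotation; where a gene had several, the one with the highest mean was kept. The ages were tested in R 4.3.3 with limma 3.58.1 (lmFit and eBayes on the 2 groups, two-sided, no filter), with Benjamini-Hochberg adjustment over all these probe sets. The number of arrays limits the precision. Controls (5222 negative, 1324 positive) were recognised by their names in the table.

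The genes and lists were chosen with earlier results of these data known. Values are given in full for members at an unadjusted p under 0.05, with a difference of at least 1 log2 unit or among paralogues; up to 4 genes with the smallest p were named from each other list and up to 3 from each marker list, and Mb, Pecam1, Lep, Plin1, Cidec, Adipoq, Itga7, Itgb1, Pax7, Myh7, Actn3, Tnnt3 and Ltf were added after their values were seen. The TGACG and GGGCGG motifs were also added then. Markers of satellite cells, fibroblasts and pericytes had median differences of -0.15, -0.62 and 0.20. Protein sequences were not used here. Alternatives were other scalings, a filter on dim probe sets, other variance priors, the replicate block, each array left out, every entry of the table and averaged probe sets.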

Additional observations from a re-analysis of the deposited data

How the results depend on the processing

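The number of members past the adjusted threshold stayed at 0 in limma under each alternative run. The 4 members at an unadjusted p under 0.05 became 7 with arrays centred on the negative controls, and 1 (Ppargc1a) when every entry of the table was fitted, and were 3 to 4 with an array left out. The filter on dim probe sets gave 3, without Hadha, and the variance prior with a trend 4, with Fabp4 in place of Hadha. The cause of the change with every entry was not tested. Non-overlapping members were 8 in the main fit, 9 with median centring and 12 (2 higher, 10 lower) with centring on the negative controls. They were 16 to 21 with an array left out, since 1 array is easier to separate. Under these alternatives the share of all probe sets without overlap, or at an unadjusted p under 0.05, was not counted. The counts therefore have no background to be read against. The other pathway genes at that threshold were 7, and 2 to 15 with an array left out. The replicate number as a block also gave 4 members, with Acadm (unadjusted p of 0.0417) in place of Hadha (0.0595). It leaves 1 residual degree of freedom. Deviations of same-numbered arrays from their group means had an r of -0.0507 over probe sets. With 2 arrays per age that value cannot decide whether same-numbered arrays shared a batch, and the labels give only a replicate number. Leaving out an array leaves 1 array in an age, which is then assumed to vary like the other age. The filter on dim probe sets left 27 members, without Cpt1b, Ppara and Ucp3.

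The median difference kept its sign in each alternative, at -0.43 to -0.092. Of 387 member values under alternatives, 328 kept direction and side of the unadjusted threshold, 12 newly passed, 14 no longer passed and 33 turned sign; 13 members never turned. With centring on the negative controls the turned values were -0.092 for Cd36, -0.22 for Fabp5, -0.16 for Cpt1a, -0.21 for Slc25a20, -0.051 for Acads, -0.26 for Etfa, -0.026 for Ppara and -0.17 for Angptl4. Etfa was -0.011 with median centring, and Hadh 0.0096 after a second quantile normalization. With an array left out, values ran from -0.26 to 0.65 for Cd36, -0.27 to 0.41 for Fabp5, -0.50 to 0.75 for Cpt1a, -0.11 to 0.84 for Cpt2, -0.40 to 0.56 for Slc25a20, -0.40 to 0.045 for Acadl and -0.13 to 0.60 for Acads. They ran from -0.65 to 0.58 for Hadh, -1.28 to 0.24 for Echs1, -0.79 to 0.42 for Eci2, -1.03 to 0.23 for Acaa2, -0.40 to 0.45 for Etfa, -1.09 to 0.50 for Etfdh, -0.38 to 0.082 for Plin4, -0.041 to 0.27 for Angptl4 and -0.48 to 0.23 for Ucp3.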
